A study of Mus musculus with 2 samples.

Results

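Histones are the proteins around which DNA is wound, and 69 of the mouse genes that encode them were described here in breast tumours. They are the lines of the count table whose symbols begin as those of linker histone H1 and of core histones H2A, H2B, H3 and H4 do in the current mouse nomenclature, and whose counts in both libraries sum to at least 20. Symbols of MHC genes and pseudogenes were left out. Of 78 lines with such a symbol, 69 passed that minimum, out of 18687 genes of any kind that passed it and 35602 symbols in the table. By their older names, 60 of the 69 are replication-dependent genes and 9 are variant histone genes. The choice used symbols and summed counts, not the difference between the libraries.

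Tumour tissue of mice treated with a PD-1 inhibitor by injection into the peritoneal cavity was compared with that of mice given the same inhibitor and acupuncture. PD-1 is an inhibitory receptor of T cells. The labels give no strain, age, tumour model, dose, duration or number of pooled animals. Each group was 1 library, so there were no replicates, no test was possible, and every difference below is between these 2 libraries and not between the treatments.

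A cell in S phase makes new histones for the copied DNA from clustered genes without introns, whose mRNAs end in a conserved stem-loop instead of a poly(A) tail. Stem-loop binding protein holds that structure, the U7 small nuclear ribonucleoprotein directs the cut behind it, and the mRNAs are degraded when DNA synthesis stops. Variant histones such as H2A.Z, H3.3 and H1.0 come from separate genes with polyadenylated mRNAs, are made in and outside S phase, and take the place of the clustered histones at promoters, at damaged DNA or in cells that have left the cycle.

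The stem-loop sets the classes apart by sequence, so its forms are shown first. The consensus of the histone stem-loop (GG and CC at the ends of the stem, CTT and AG on either side of the variable loop bases, 16 bases in all) was searched on the sense strand of the 3′ UTRs of the GENCODE M21 transcripts (build GRCm38). It was found in 43 of the 47 replication-dependent genes with a UTR model (91.5%), and the other 13 had no UTR model to search. Of 7 searchable variant genes, H2ax alone held it, and of 20929 other protein-coding genes 42 did (0.201%). The 24 genes with the most common form include H1f2, H1f3 and H1f4 and genes of the H2A, H2B and H3 families, while the H4 genes carried forms of their own. The lines give the DNA letters 5′ to 3′, with both arms of the stem in capitals and the loop in lower case.
Most common form, 24 genes: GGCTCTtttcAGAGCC
H2bc12, H2bc3, H3c3, H3c6 and H3c7: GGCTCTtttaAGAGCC
H3c8: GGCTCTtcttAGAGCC
H2ac20: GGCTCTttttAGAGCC
H4c17, H4c18, H4c3, H4c4, H4c6, H4c8 and H4f16: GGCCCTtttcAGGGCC
H4c9 and H4c14: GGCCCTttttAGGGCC
H4c2 and H4c11: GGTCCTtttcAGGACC
H4c1: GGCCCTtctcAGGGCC
H2ax (variant): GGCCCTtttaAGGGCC

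The 4 replication-dependent genes with a UTR model and without the pattern were H2bc4, H2bc21, H2bc23 and H3c13. In 20 of the 43 genes with the stem-loop, among them H1f2 and H4c9, the annotated transcript ran on for 100 bases or more behind it, and in 23 it ended sooner. The first set held 6992 counts in the inhibitor-only library and 3242 with acupuncture, of which H1f2 alone held 4942 and 2194. The second set held 1862 and 914. Median log2 ratios of the first and second set were −0.35 and −0.20. The table does not say where in a transcript a count fell.

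Promoters of the clustered genes are short and often shared by a pair of genes that point away from each other. The 250 bases before the start site (RefSeq, build GRCm38.p6) were available for 54 of the 60 replication-dependent genes and 7 of the 9 variants, and were searched on both strands for the octamer ATTTGCAT, CCAAT and TATAAA, none of which lies within another. Genes were counted, and a gene with several start sites, such as H2bc6, held a motif if any of its windows did. The octamer, the sequence that Oct-1 binds in H2B promoters, stood in 6 of 13 replication-dependent H2B genes and 5 of 15 H2A genes. None of the searched H1, H3 or H4 genes of this class held it. Of 27025 genes of any kind, 1.81% did. CCAAT, the box that NF-Y binds, stood in the same class in all 15 H2A, all 13 H2B and all 4 H1 genes searched. It stood in 8 of 10 H3 and 3 of 12 H4 genes, and in 37.5% of all genes. TATAAA stood in 24 of the 54 (44.4%), against 14.3% of all genes. Of the 7 variant windows, 1 held the octamer, 4 held CCAAT and 1 held TATAAA, and that of H3f3b held all 3. Windows of 8 H2A and H2B pairs overlap, so the tallies of these families are not all of separate sites. H2ac8 and H2bc8 share the same octamer, and so do H2ac12 and H2bc12. A match of letters is a description and not a bound site.

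The window of H2bc8 shows all 3 motifs, and it overlaps the window of its divergent neighbour H2ac8 by 179 bases. The window of H2bc18 holds the octamer without TATAAA, the window of H1f5 holds TATAAA without the octamer, and that of H2bc13, the one replication-dependent gene past the limit below, holds 4 CCAAT boxes and neither of the other motifs. That of the linker variant H1f0 holds none of the 3, unlike the window of H3f3b. Motifs are in capitals on the strand of the gene, ATTGG being CCAAT on the other strand, and the sequences run 5′ to 3′ to the base before the start.
H2bc8, chr13:23571150-23571399, plus strand: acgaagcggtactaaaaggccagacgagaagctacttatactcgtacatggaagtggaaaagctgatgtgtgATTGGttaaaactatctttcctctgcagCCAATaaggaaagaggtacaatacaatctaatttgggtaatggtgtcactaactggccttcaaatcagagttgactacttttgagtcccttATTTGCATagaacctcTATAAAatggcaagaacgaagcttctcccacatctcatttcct
H2bc18, chr3:96269450-96269699, plus strand: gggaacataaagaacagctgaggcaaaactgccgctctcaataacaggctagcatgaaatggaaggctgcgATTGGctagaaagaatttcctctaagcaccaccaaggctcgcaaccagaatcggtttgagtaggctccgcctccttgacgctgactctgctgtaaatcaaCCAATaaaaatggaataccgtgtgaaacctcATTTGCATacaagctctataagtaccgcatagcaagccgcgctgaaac
H1f5, chr13:21780626-21780875, minus strand: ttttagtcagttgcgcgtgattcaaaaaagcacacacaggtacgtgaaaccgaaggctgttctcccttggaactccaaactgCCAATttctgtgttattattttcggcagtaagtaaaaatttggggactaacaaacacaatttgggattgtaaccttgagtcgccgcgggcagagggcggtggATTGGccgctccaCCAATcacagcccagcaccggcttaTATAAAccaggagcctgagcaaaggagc
H2bc13, chr13:21716184-21716433, minus strand: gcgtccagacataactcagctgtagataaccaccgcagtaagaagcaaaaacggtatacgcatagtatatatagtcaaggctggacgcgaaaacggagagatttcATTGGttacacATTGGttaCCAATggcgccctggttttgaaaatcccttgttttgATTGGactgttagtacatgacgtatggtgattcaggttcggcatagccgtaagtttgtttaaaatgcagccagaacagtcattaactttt
H1f0, chr15:79027962-79028211, plus strand: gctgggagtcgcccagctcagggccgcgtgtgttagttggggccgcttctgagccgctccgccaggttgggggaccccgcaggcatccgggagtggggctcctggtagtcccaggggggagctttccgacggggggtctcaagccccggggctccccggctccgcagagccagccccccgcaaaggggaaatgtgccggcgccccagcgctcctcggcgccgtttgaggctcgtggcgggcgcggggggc

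The deposited table held 105728292 counts in the inhibitor-only library and 60752043 with acupuncture. Values are counts, counts per 1000000 (CPM) of library sizes scaled by TMM, and ratios of acupuncture over PD-1 inhibitor alone with exact Clopper-Pearson 95% intervals, which cover counting error only. Genes at least 2-fold apart whose interval leaves out 1 are called higher or lower. Over all 18687 genes, 9.21% were higher and 4.9% lower with acupuncture. The 2 libraries differed in cell type markers: all 14 T cell, all 12 B cell and all 16 skeletal muscle genes and 13 of 14 adipocyte genes were higher, as were 2 of 12 fibroblast and 4 of 7 erythroid genes, while 12 of 15 neutrophil and 2 of 12 macrophage markers were lower. Epithelial markers, which fit the labelled tissue, were abundant in both, with Krt8 at 1564 and 1060 CPM, and 3 of 16 were lower. The part of tissue content in the histone values was not tested, and fewer cells of a type cannot be told apart from less RNA per cell in bulk tissue.

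Most variant genes gave far more counts per kb of transcript than the replication-dependent ones in both libraries. Per kb of the longest annotated transcript, the 59 replication-dependent genes with a model had a median level of 0.886 CPM in the inhibitor-only library and 0.750 with acupuncture. Their highest level per kb was that of H1f2, at 31.0 and 22.4 CPM, followed by H2bc4 at 15.7 and 13.3. Among variants, the level per kb was 741 and 656 CPM for H3f3b, 607 and 386 for H1f0, 443 and 441 for H2az1, 114 and 118 for H3f3a, 80.4 and 44.3 for H2ax and 59.3 and 37.4 for H2az2. Every one of these 6 stood above H1f2 in both libraries. H3f3c, at 2.34 and 1.66, and H1f10, at 0.821 and 0.953, lay within the range of the replication-dependent genes. As shares of all counts, the 60 replication-dependent genes made up 0.0119% and 0.0105%, and the 9 variants 0.397% and 0.349%. The labels name a kit for mRNA, and whether it primed on poly(A) is not given in the sources used here. Of a list of 25 other RNAs without poly(A), only 1 had a line in the count table, Vaultrc5, with 3 and 0 counts. The list thus had 0 genes at 20 counts and gives no comparison.

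**Figure D1:**
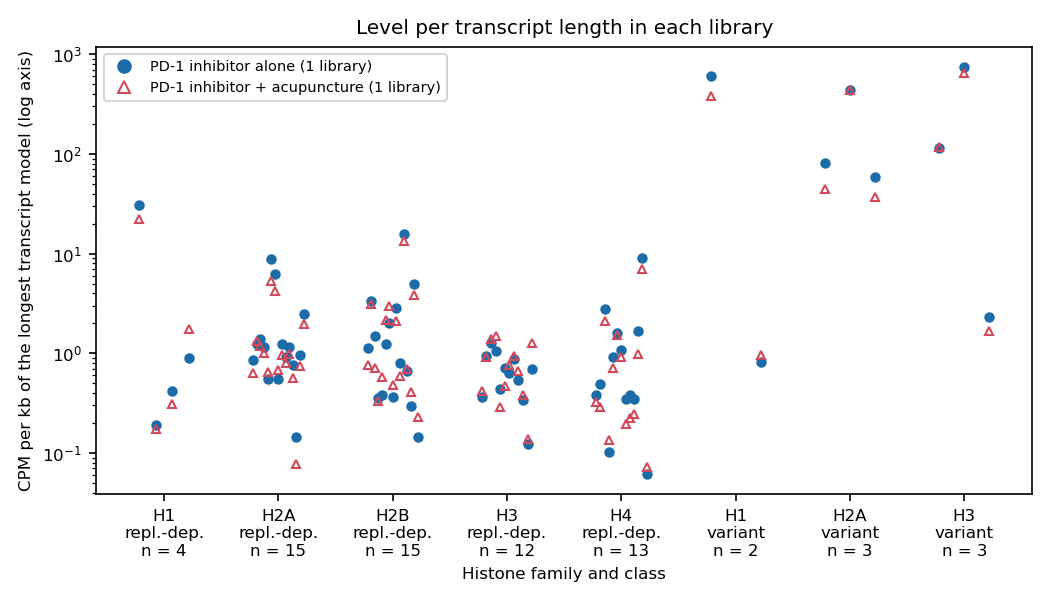
Level of each histone gene in CPM per kb of its longest transcript model (log axis) by family and class, with filled circles for the PD-1 inhibitor alone and open triangles for acupuncture, 1 library each; H2bc24 and H1f9 have no model and are not drawn. In both libraries 6 variants lie above H1f2, the highest replication-dependent gene, at 31.0 and 22.4.

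Among the 60 replication-dependent genes, 0 were higher and 1 was lower with acupuncture past the 2-fold limit, beside 9.21% higher and 4.9% lower over all genes. At any fold, the interval lay above 1 for 4 genes and below 1 for 10, against 35.1% and 34.8% of all genes, most of which had more counts. The 37 members under 100 counts gave 1 interval above 1 and 1 below, with 0 genes higher and 1 lower. Of 3435 genes of any kind in their count range, 775 intervals lay above 1 and 466 below. Past the limit, 665 of those 3435 genes were higher and 416 lower. The ratio was below 1 for 38 of the 60. The median log2 ratio was −0.21, with quartiles of −0.41 and 0.17 and a range from −1.01 to 0.94, beside a median of 0.06 over the 13174 genes in the same range of combined counts. The summed counts were 12554 and 6349, a ratio of 0.821 (95% interval 0.796 to 0.846). These directions depend on the scaling: with the median of the epithelial markers set to 0, the median of all genes moves up to 0.39 and that of the 60 genes becomes 0.15, while with the median of DNA replication genes set to 0 it becomes −0.43. With the epithelial markers at 0, the family medians become 0.12 for H1, 0.04 for H2A, 0.27 for H2B, 0.51 for H3 and 0.0097 for H4. Single genes with log2 values near 0 change sign under one or the other of these scalings as well.

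The linker histones of the H1 family, which bind the DNA between nucleosomes, were dominated by 1 gene. H1f2 had 4942 counts in the inhibitor-only library and 2194 with acupuncture, or 48.4 and 34.9 CPM, a ratio of 0.720 (0.685 to 0.758). It was the most counted replication-dependent gene, and 91.5% of the 50-base windows of its transcript occur in no other gene. H1f3 had 144 and 82 counts, a ratio of 0.924 (0.696 to 1.22), and its interval held 1. H1f5 had 68 and 82 counts, or 0.666 and 1.30 CPM, a ratio of 1.96 (1.40 to 2.74), the highest log2 value of the class at 0.94. Every 50-base window of H1f5 is its own. H1f4 had 83 and 38 counts, a ratio of 0.743 (0.492 to 1.10), and its annotated transcript overlaps H2bc6 on the same strand. The 4 genes thus differed in direction, with 3 ratios below 1 and 1 above, and neither H1f2 nor H1f5 had an interval that held 1.

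The H2A genes encode a core histone that pairs with H2B at the outer faces of the nucleosome, and 12 of their 15 ratios were below 1. The median log2 ratio was −0.34 (quartiles −0.39 and −0.18). H2ac18 had 524 and 197 counts, a ratio of 0.610 (0.515 to 0.720), and H2ac19 had 338 and 140, a ratio of 0.672 (0.548 to 0.821). Both intervals lay below 1, but the genes are near-identical copies in the Hist2 cluster with 0% of 50-base windows of their own, so their counts are uncertain one against the other and are not separate evidence. The lowest member was H2ac6, with 37 and 12 counts, a ratio of 0.526 (0.250 to 1.03). The highest was H2ac20, with 29 and 22 counts, a ratio of 1.23 (0.674 to 2.22). Intervals of both held 1. The family summed to 1574 and 708 counts, a ratio of 0.730 (0.667 to 0.798). H2ac18 and H2ac19 supplied 524 and 338 of the 1574, and 197 and 140 of the 708, so this sum leans on the near-identical copies. Each of the 15 genes has an annotated gene on the other strand, as have H2bc18, H3c13 and H4c2 in the other clustered families. The strand setting of the counts is not given in the sources used here, and the part of such genes in these values was not tested.

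H2B genes were split. Their median log2 ratio was −0.09 (quartiles −0.38 and 0.44), 9 of 16 ratios were below 1, and the sum of 4006 and 2313 counts gave a ratio of 0.937 (0.890 to 0.986). H2bc4, the most counted, had 1847 and 964 counts, or 18.1 and 15.3 CPM, a ratio of 0.847 (0.783 to 0.916). H2bc21, of the Hist2 cluster, went the other way with 541 and 493 counts, or 5.30 and 7.84 CPM, a ratio of 1.48 (1.31 to 1.67). Neither gene has the stem-loop pattern in its UTR model, which is 2192 bases long for H2bc21. Both stand in this class by older name alone. H2bc21 shares no 50-base window with another gene. H2bc18 had 48 and 52 counts, a ratio of 1.76 (1.16 to 2.66), but 0% of its windows are its own. H2bc13 was the single replication-dependent gene past the limit, with 58 and 17 counts or 0.568 and 0.270 CPM, 2.10-fold lower with acupuncture (1.21 to 3.85). It rests on 75 counts, and 17.2% of its windows are its own. It is not past the limit when libraries are scaled by total counts. H2bc23, H2bc24 and H2bc8, outside the naming rule and picked because their intervals lay below 1, had ratios of 0.734, 0.762 and 0.785. Of their 50-base windows, 0% are unique for H2bc23 and 50.3% for H2bc8, and H2bc24 has no sequence model.

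H3 was the family whose median lay above 0. H3 carries the tail lysines that are methylated at promoters and in silent chromatin. Its 12 clustered genes had a median log2 ratio of 0.14 (quartiles 0.05 and 0.27), and 3 ratios below 1. That median becomes −0.07 with DNA replication genes at a median of 0, and −0.57 over the genes with at least 100 counts, H3c4, H3c14 and H3c15. All 12 genes together summed to 569 and 375 counts, a ratio of 1.07 (0.936 to 1.22), so the sum showed no difference beyond counting error. H3c4 had 69 and 52 counts (1.22, 0.836 to 1.78), and H3c14 had 81 and 33 (0.661, 0.427 to 1.002). H3c15, which shares sequence with H3c14, was lowest with 75 and 30 (0.649, 0.410 to 1.003). H3c8, which carries a stem-loop form of its own, was highest with 38 and 42 counts, a ratio of 1.79 (1.13 to 2.86), and was the one H3 gene whose interval left out 1.

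H4 genes, which encode one identical core protein from many copies, had 11 of 13 ratios below 1 and a median log2 ratio of −0.35 (quartiles −0.71 and −0.21). H4c9 held most of the counts, 664 and 321, or 6.50 and 5.10 CPM, a ratio of 0.784 (0.684 to 0.898). H4c12 had 89 and 41 counts, a ratio of 0.747 (0.503 to 1.09). H4c8 was lowest with 81 and 29 counts, a ratio of 0.581 (0.366 to 0.898), and H4c14 highest with 17 and 14, a ratio of 1.34 (0.610 to 2.88). Summed over the family, 1168 and 557 counts gave a ratio of 0.774 (0.698 to 0.857). The intervals of H4c9 and H4c8 left out 1, and those of the other 11 genes held it.

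**Figure D2:**
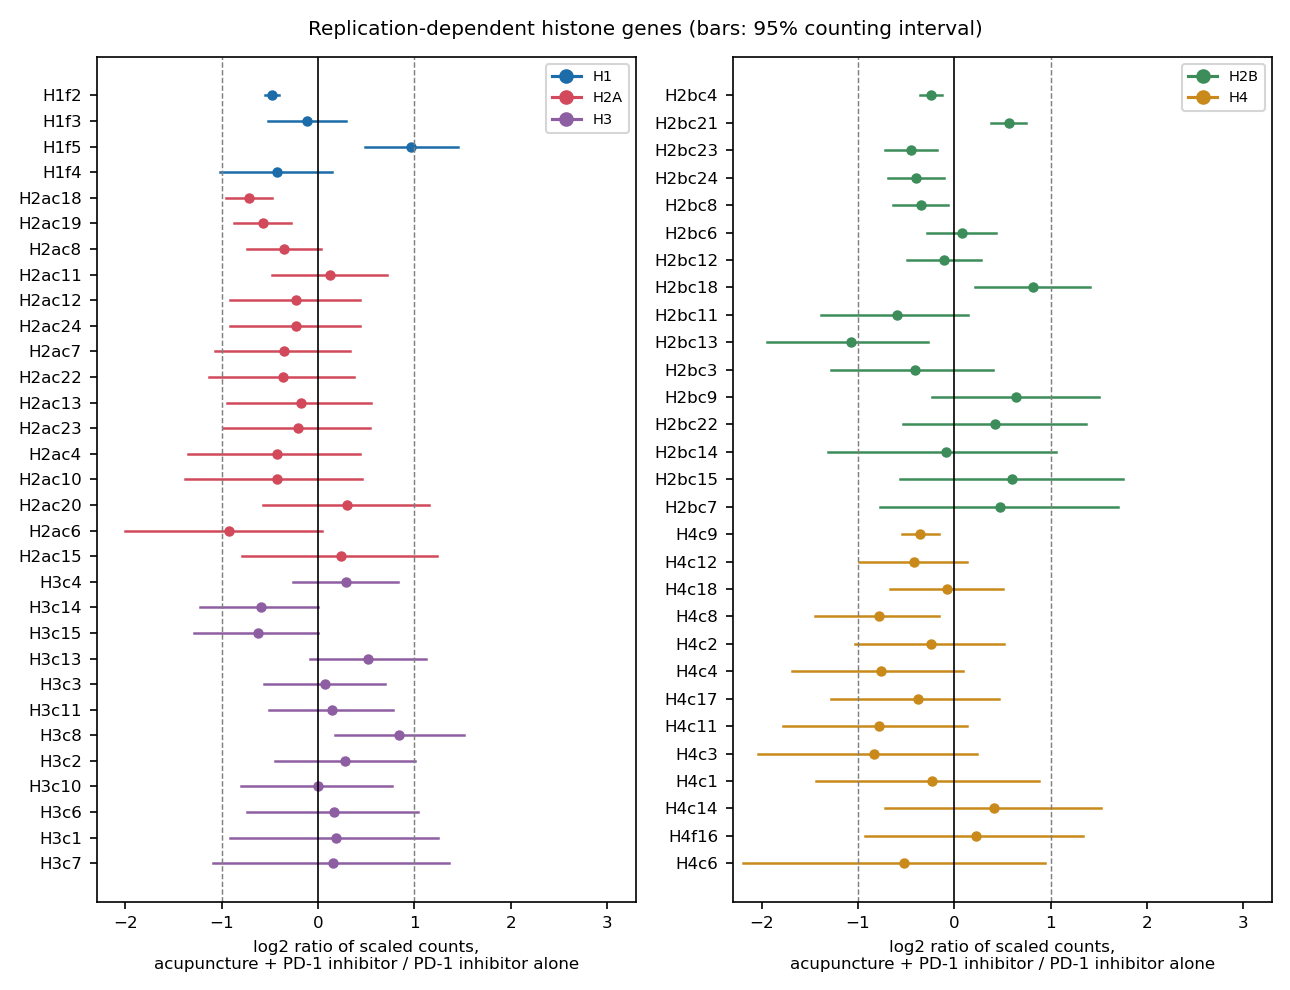
Log2 ratio of TMM-scaled counts, without the prior count, of the 60 replication-dependent genes, by family and ordered by counts within it, with bars for the exact 95% counting interval and dashed lines at 2-fold. Most intervals cross 0; H1f5, H2bc21, H2bc18 and H3c8 lie wholly above it, and H2bc13 is the one point beyond the lower dashed line with a bar below 0.

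By position, the 49 genes of the Hist1 cluster had a median log2 ratio of −0.22 and the 9 of the Hist2 cluster one of 0.28. The intervals of these medians over genes were −0.35 to −0.07 and −0.60 to 0.56. Summed counts gave ratios of 0.796 (0.770 to 0.823) for Hist1 and 0.977 (0.904 to 1.06) for Hist2. The Hist2 genes held both some of the lowest ratios (H2ac18, H2ac19, H3c14 and H3c15) and some of the highest (H2bc21 and H2bc18). Among H2A and H2B genes, 8 pairs face away from each other with upstream windows that overlap by 163 to 248 bases. In 4 pairs both ratios were below 1, in 1 both were above, and in 3 they lay on either side. H2ac8 and H2bc8, the pair whose shared window is printed above, had ratios of 0.784 and 0.785. H2ac13 and H2bc13 had 0.882 and 0.476, so the partner of the gene past the limit was not past it. For 0 of the 8 pairs did the interval of the ratio between partners leave out 1, at 26 to 533 counts a gene, which does not show that partners moved alike.

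Counts of near-identical genes depend on how reads with several matches were treated, which is not given in the sources used here. Across replication-dependent genes a median of 43.0% of 50-base windows were unique, against 88.1% across variants with a model. The median log2 ratio was −0.22 for the 18 genes under 20% unique, −0.22 for the 30 between 20 and 80%, and 0.08 for the 11 at 80% or more. The last set holds H1f2 (0.720) as well as H1f5 (1.96) and H2bc21 (1.48). The 23 genes with at least 100 counts had a median of −0.35, and the 37 with fewer had −0.17.

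Of the 9 variant genes, 1 was higher and 0 were lower past the limit, beside 9.21% and 4.9% of all genes. Intervals lay above 1 for 2 and below 1 for 4, beside 35.1% and 34.8% of all genes. Their median log2 ratio was −0.17, which becomes 0.22 with the epithelial markers at a median of 0. The summed counts of 420263 and 212296 gave a ratio of 0.820 (0.815 to 0.824). The sum is mostly that of H3f3b and H1f0.

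Linker variant H1f0 encodes H1.0, which accumulates in resting and differentiated cells. It had 127250 and 49886 counts, or 1246 and 793 CPM, a ratio of 0.636 (0.630 to 0.643). Its count relative to that of replication-dependent H1f2 was 25.7 in the inhibitor-only library and 22.7 with acupuncture, so both linker genes were lower and H1f0 more so. H1f10, which encodes linker H1.10, had 102 and 73 counts, a ratio of 1.16 (0.848 to 1.58). H1f9, known as a linker of spermatids, was the one variant past the limit, with 9 and 19 counts or 0.0882 and 0.302 CPM, 3.43-fold higher (1.48 to 8.60). That call rests on 28 counts and is absent with a minimum of 100. Beside it, Prm1, the protamine that replaces histones in sperm, had 6 and 20 counts, and the protamine and transition protein genes Prm2 and Tnp1 were at 0 in both libraries. Under the minimum of 20, Tnp2 and Tssk1 had 4 and 11 counts each and Ddx4 had 5 and 10, all with more counts in the acupuncture library. Of 8 male germ cell genes listed, 2 reached 20 counts, Prm1 and the meiotic gene Sycp1, which had 243 and 76, and their part in the H1f9 value was not tested.

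Among H2A variants the H2A.Z genes parted. H2az1, the more abundant H2A.Z gene, had 48358 and 29681 counts, or 474 and 472 CPM, a ratio of 0.996 (0.982 to 1.01), and this was at no difference under TMM and at a log2 of 0.10 with scaling by total counts. H2az2 had 9879 and 3838 counts, a ratio of 0.630 (0.607 to 0.654). The number of H2az1 counts for each H2az2 count was 4.90 in the inhibitor-only library and 7.73 with acupuncture, 1.58 times more (1.52 to 1.64), a quantity that no scaling of the libraries changes. H2ax encodes H2A.X, which is phosphorylated around DNA breaks. It had 11366 and 3856 counts, or 111 and 61.3 CPM, a ratio of 0.550 (0.531 to 0.571), the lowest among variants and short of 2-fold. H2ax is also the variant with the stem-loop printed above, and its model runs on for 822 bases behind it. H2az1 transcripts share sequence with copies elsewhere, with 30.4% of windows unique, while all windows of H2az2 are unique.

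The H3.3 genes, which encode the same protein and supply H3 to active chromatin outside S phase, differed less. H3f3b had 190138 and 103826 counts, the most of any histone gene, or 1863 and 1650 CPM, a ratio of 0.886 (0.879 to 0.893). H3f3a had 33063 and 21074 counts, or 324 and 335 CPM, a ratio of 1.03 (1.02 to 1.05). H3f3a counts for each H3f3b count were 0.174 and 0.203, 1.17 times more with acupuncture (1.15 to 1.19). The sign of H3f3b turns to a log2 of 0.22 with epithelial markers at a median of 0, and that of H3f3a to −0.19 with DNA replication genes at 0. H3f3c had 98 and 43 counts, a ratio of 0.712 (0.485 to 1.03), and 26.2% of its windows are unique. H3f3a, H2ax, H1f0 and H1f10 have annotated genes on the other strand of the same place, and the strand setting of the counts is not given in the sources used here.

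**Figure D3:**
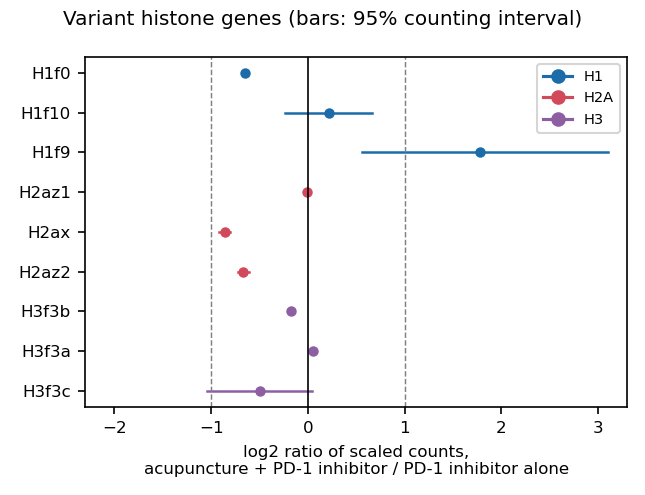
Log2 ratio of TMM-scaled counts, without the prior count, of the 9 variant histone genes, with bars for the exact 95% counting interval (hidden by the point where counts are many) and dashed lines at 2-fold. H1f0, H2ax and H2az2 lie between the lower dashed line and 0, H2az1 lies at 0, and H1f9, on 28 counts, lies beyond the upper dashed line.

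The other 9 lines with histone symbols stayed under 20 counts and enter no count or median. Testis linker H1f6 had 4 and 6, H1f1 had 4 and 2, oocyte linker H1f8 had 11 and 7, H2ac21 had 6 and 4, H3f4 had 7 and 3, and H2bu2 had 6 and 13. The testis H2B gene H2bc1 had 1 and 3, and H2ac1 and H1f7 were at 0 in both. Of these, H2bu2 had a ratio of 3.52 (1.25 to 11.3) and would be called higher with a minimum of 1 count. The intervals of the other 6 with any counts held 1, so no difference was detectable at this depth. Of histone genes outside the symbol rule, 5 of 13 listed were measured and 0 passed the limit, beside 9.21% higher and 4.9% lower over all genes. Cenpa, the H3 of centromeres, had 11431 and 5743 counts (0.815). Macroh2a1 and Macroh2a2, the macroH2A genes of silent chromatin, had 21238 and 11739 (0.897) and 170 and 195 (1.86), and H2aj had 4736 and 2283 (0.782). H2aw, outside the naming rule, had 237 and 227 (1.55, 1.29 to 1.87).

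Genes that serve the replication-dependent histone genes had a higher median log2 ratio than those histone genes, a difference that was not tested. The interval over genes of the histone median was −0.35 to 0.07 and held 0. It overlaps that of the median of the serving genes, 0.01 to 0.26. Of 23 genes for transcription, processing and decay of replication-dependent histone mRNAs, 0 were higher and 0 lower past the limit, the interval lay above 1 for 13 and below 1 for 4 (35.1% and 34.8% over all genes), and the median log2 ratio was 0.09 against −0.21 for the histone genes. Snrpb, a core protein of small nuclear ribonucleoproteins, had 26171 and 14480 counts, or 256 and 230 CPM (0.898), and Sympk, the symplekin scaffold of 3′ end cleavage, had 12806 and 7603 (0.963). Snrpd3 was lowest at 102 and 79.0 CPM (0.771), and Ccne1, the cyclin E that with Cdk2 turns on histone transcription through Npat, was highest at 10.1 and 18.6 CPM (1.85, 1.70 to 2.01). Slbp, chosen after its values were seen as it encodes the stem-loop binding protein, had 10117 and 9050 counts, or 99.1 and 144 CPM, a ratio of 1.45 (1.41 to 1.49).

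Chaperones and exchange factors, which carry histones to DNA, numbered 30 measured of 31 listed. Again 0 were higher and 0 lower past the limit, intervals lay above 1 for 15 and below 1 for 11 (again beside 35.1% and 34.8%), and the median log2 ratio was 0.03. Nap1l1, a carrier of H2A and H2B, had 69424 and 42600 counts, or 680 and 677 CPM (0.996). Hjurp, the chaperone of CENP-A, had 36113 and 20530 (0.922), with Cenpa itself at 0.815. Znhit1, a subunit of the SRCAP complex that inserts H2A.Z, was lowest at 43.2 and 33.0 CPM (0.764), and Dek, a carrier of H3.3, was highest at 138 and 206 CPM (1.49).

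DNA replication genes, whose S phase the clustered histones accompany, had a median log2 ratio of 0.23 over 29 genes, with the interval above 1 for 26 and below 1 for 2 (35.1% and 34.8% over all genes), and 0 past the limit in either direction. Pcna, the sliding clamp, was at 252 and 345 CPM (1.37), Mcm6, of the replicative helicase, at 245 and 284 (1.16), and E2f1, the transcription factor of S phase genes, at 45.6 and 36.0 (0.790). Genes of G2 and M phase had a median of 0.13 over 20 genes, with 11 intervals above 1 and 6 below and 0 past the limit. Top2a and Mki67 were at ratios of 1.14 and 1.09, Ccna2 was highest at 1.17 and Birc5 lowest at 0.711. The median of the replication-dependent histone genes lay 0.45 below that of the DNA replication genes on the log2 scale. With the DNA replication genes set to a median of 0, the histone median was −0.43. The gap was described from 2 libraries and not tested, and neither was the part of mRNA capture in it.

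**Figure D4:**
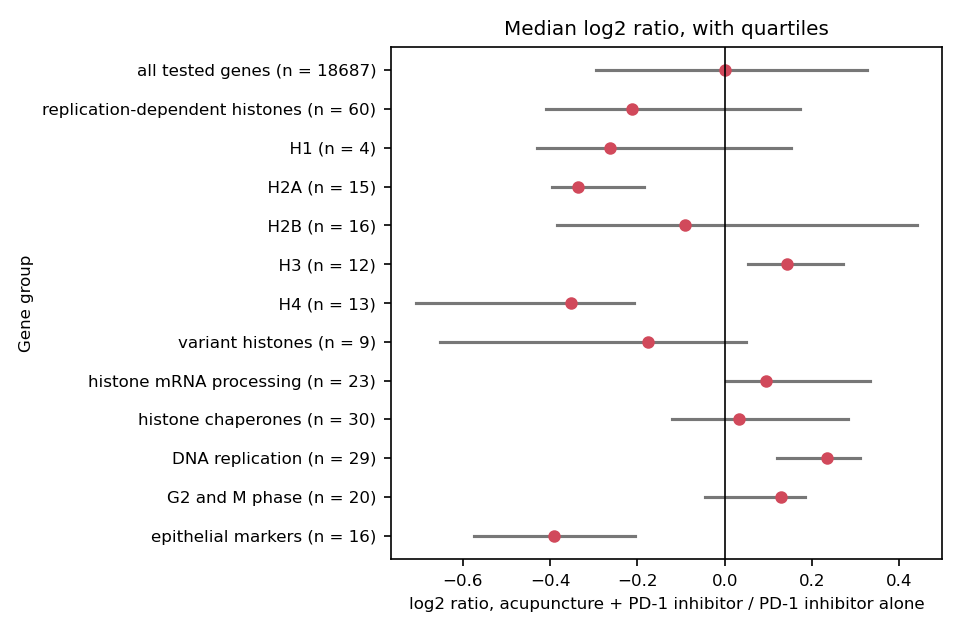
Median log2 ratio (points) with quartiles over genes (bars) for all tested genes, histone classes and families, and the lists fixed for histone mRNA processing, chaperones, DNA replication, G2 and M phase and epithelial markers. The replication-dependent genes (−0.21) lie below the DNA replication list (0.23) and above the epithelial markers (−0.39), and H3 (0.14) is the histone family to the right of 0.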

How the data were processed

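The authors deposited whole-number read counts per gene symbol, 1 column per library, per the labels from total RNA with a kit for mRNA. Builds GRCm39 and mm39 stand in the submitters' processing notes; the sources used here do not give the aligner, counter or strand setting. Every line named a gene. Libraries were scaled with TMM factors of 0.966 and 1.04 (edgeR 4.0.16, R 4.3.3), and log2 ratios carry a prior count of 2. The calculation was tested on simulated data. Classes followed older RefSeq names (Hist1h to Hist4h); H2bc24 and H1f9 were not matched there and were placed by symbol. Sequence models are of build GRCm38, so their coordinates are not those of the counts. Named genes were all variants, per clustered family the 2 with most counts and the highest and lowest log2 ratio, members past the limit, and likewise up to 4 per list with at least 100 counts; an item named by this rule is not reported here. The members and lists were chosen with earlier results of these data known. Alternatives were DESeq2 1.42.0 size factors, total counts, upper quartile, totals without the 10 most abundant genes, prior counts of 0.5 and 5, minimums of 1 and 100, limits of 1.5-fold and 4-fold and the ratio alone; scalings to the epithelial or DNA replication list and a minimum share of unique windows were chosen after seeing the data.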

Additional observations from a re-analysis of the deposited data

How the results depend on the processing

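Of 185 values of 15 main results under 14 alternatives, 148 stayed close and 37 moved. Close meant a median within its interval over genes, or a count of genes within 1.5 times. The 4 H1 genes are too few for that interval, so their whole range from −0.47 to 0.94 stood in for it. Values read in the order replication-dependent, then variant. Scaling by total counts, or by totals without the 10 most abundant genes, gave 1 higher and 0 lower replication-dependent genes and moved the median of all genes by 0.10. A minimum of 1 count gave 1 higher, H2bu2. A minimum of 100 counts gave 0 lower, 0 higher variants, 1 variant interval above 1, and medians of −0.46 for H2A and −0.57 for H3. A limit of 1.5-fold gave 3 higher and 3 lower, and 3 variants lower. A limit of 4-fold gave 0 lower and 0 variants higher. The shares of all genes past these 2 limits were not computed, so these counts have no background. With epithelial markers at a median of 0, which moves the median of all genes by 0.39, there were 4 higher and 0 lower, intervals above 1 for 9 and below 1 for 2, a median of 0.15, a variant median of 0.22 with 5 intervals above 1, and medians of 0.039 for H2A, 0.51 for H3 and 0.0097 for H4. With DNA replication genes at 0, a move of that median by −0.23, there were 4 lower, intervals above 1 for 2 and below 1 for 19, a median of −0.43, 1 variant lower with intervals above 1 for 1 and below 1 for 7, and medians of −0.49 for H1, −0.56 for H2A and −0.067 for H3. Of all 18687 genes, 1936 were higher and 769 lower under total counts. With the epithelial markers at 0, 2826 were higher and 470 lower, and with the DNA replication genes at 0, 1313 and 1420. The share of called genes that were higher was 65.3% under TMM, 71.6% under total counts, 85.7% and 48.0% under these 2 list scalings. Members with at least 20% unique windows gave 0 lower and 5 intervals below 1. No paired analysis was possible because each group is 1 library, and no result comes from a test. For most clustered genes, with a median combined count of 78, counting error alone spans more than the difference.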
